A study of Arabidopsis thaliana with 9 samples.

Results

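Transcripts of Arabidopsis thaliana rosettes that carry pdx3-3, the allele with the lower remaining PDX3 transcript, were compared with those of wild type over all nuclear loci. The comparison holds 6 of the 9 libraries of the study, 3 of pdx3-3 (line SALK_054167C) and 3 of wild type, all in the Col-0 background. The other 3 libraries are from a second PDX3 mutant, pdx3-4 (line GK-260E03), and are used here for the shared estimate of spread and where the alleles are set side by side. Each library is polyA-selected mRNA of whole rosettes of plants 21 days old, grown on soil in 16 h of light and 8 h of dark. Each mutant is 1 line, and no complemented line was among the samples, so a difference in pdx3-3 cannot be told apart from other differences that this line may carry. Of 33602 loci in the files, 33319 were nuclear and not ribosomal RNA and were kept, and 18711 of them passed the filter on low counts and were tested.

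PDX3 encodes the oxidase that turns pyridoxine 5′-phosphate and pyridoxamine 5′-phosphate into PLP (pyridoxal 5′-phosphate), the vitamin B6 vitamer that enzymes bind. PLP serves aminotransferases, decarboxylases and other enzymes of amino acid metabolism, and in leaves it also serves photorespiration through serine hydroxymethyltransferase and glycine decarboxylase. A plant without PDX3 can still make PLP directly through the PDX1 and PDX2 synthase. Plant immunity is read at the transcript level mainly through salicylic acid synthesis genes, WRKY transcription factors, immune receptors and the secreted pathogenesis-related proteins, and rosettes that express them strongly are often small.

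Libraries held 15912737 to 20973958 counts in pdx3-3 and 18689726 to 21938941 counts in wild type. Chloroplast-encoded transcripts, which carry no long polyA tail, made up 0.536%, 0.174% and 0.0230% of counts in pdx3-3 libraries 1, 2 and 3, against 0.0207% to 0.0532% in wild type, and ribosomal RNA loci 0.774%, 0.242% and 0.0199%, against 0.0201% to 0.0608%. Those loci are left out here, and for the gene lists the count without pdx3-3 libraries 1 and 2 is also given where it differed by over 1.5 times. The leading principal component of the 500 most variable genes held 91% of the variance and set the pdx3-3 libraries apart from wild type. Those genes were chosen by variance over the pdx3-3 and wild-type libraries alone. Genes that differ between the groups were thus favoured, and the separation was in part fixed by the choice. Values are CPM, counts scaled to library size with TMM factors. Fold changes are log2 of pdx3-3 over wild type with their standard error (SE), and a gene is called, or said to have risen or fallen, at a Benjamini-Hochberg adjusted p under 0.05 in edgeR's quasi-likelihood test. The labels call the libraries of a genotype biological replicates, without saying how many plants each holds. In whole rosettes, fewer cells of a type and less RNA per cell cannot be told apart.

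PDX3 itself is AT5G49970, with the symbol PPOX in TAIR10.1. It lies on the plus strand of chromosome 5 (20329103 to 20333172) and had 9.19, 8.15 and 10.6 CPM in pdx3-3, against 92.5, 93.7 and 78.5 CPM in wild type. Every pdx3-3 library lay far below every wild-type library, with group means of 9.33 ± 1.25 CPM in pdx3-3 and 88.3 ± 8.46 CPM in wild type (SD, n = 3 each; log2 −3.24, SE 0.12, adjusted p = 8.23e-08). The weaker allele pdx3-4 averaged 45.5 CPM, above all pdx3-3 libraries (pdx3-3 against pdx3-4, log2 −2.28, SE 0.12, adjusted p = 7.86e-06). The counts carry no position along the gene, so full-length transcript was not told from partial transcript. Among the 6 tested genes within 10 kb of PDX3, AT5G49960, an ion channel protein on the opposite strand, was called lower (log2 −0.53, adjusted p = 0.00488). It had 6.76, 6.78 and 6.73 CPM in pdx3-3, against 11.5, 9.32 and 8.39 CPM in wild type, and without pdx3-3 libraries 1 and 2 its adjusted p was 0.0806. The others, AT5G49945, AT5G49950, AFB5, AT5G49990 and AT5G50000, were not called, at log2 −0.014, −0.13, −0.16, 0.0018 and −0.14.

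**Figure D1:**
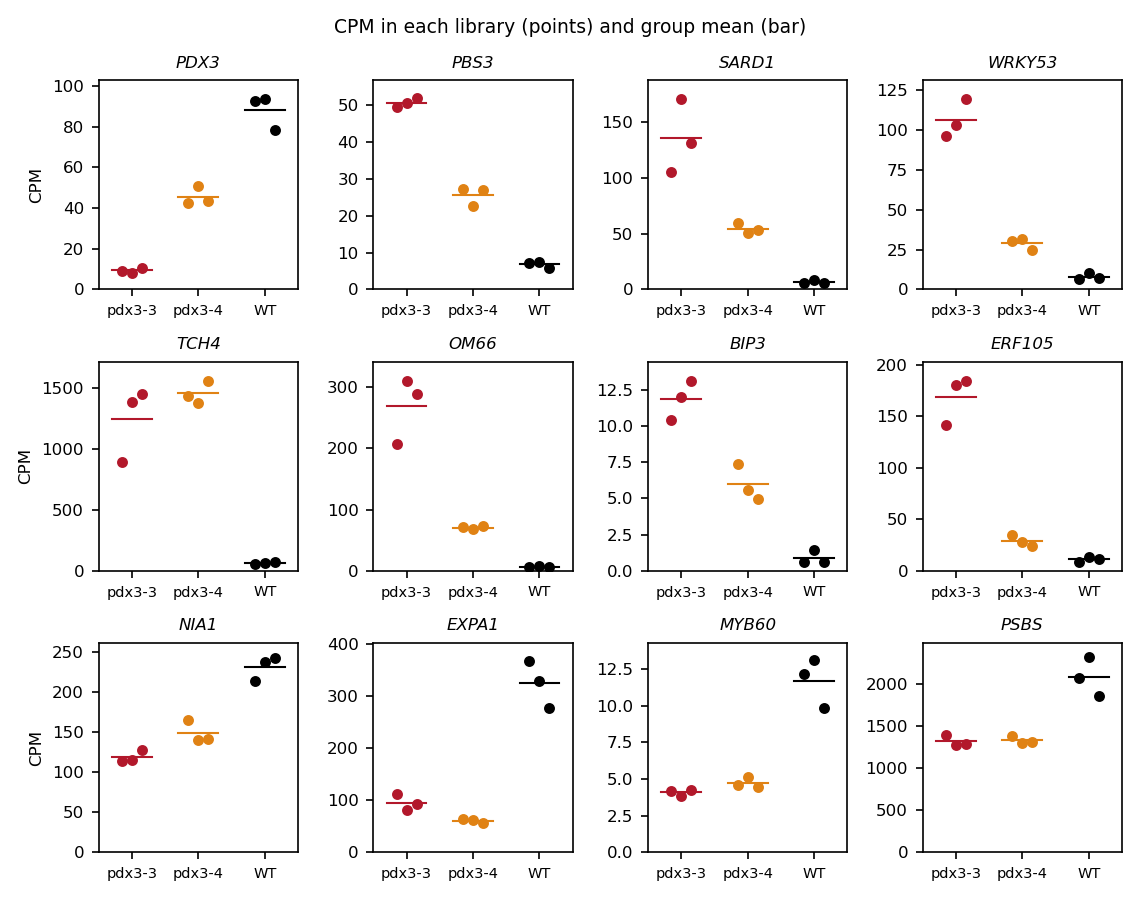
CPM of 12 genes in each library (points, 3 per genotype) with the group mean (bar), on linear axes that start at 0; pdx3-3 is at the left, pdx3-4 in the middle and wild type (WT) at the right. PDX3 lies at 8.15 to 10.6 CPM in pdx3-3 against 78.5 to 93.7 CPM in wild type, and in every panel the pdx3-3 points do not overlap those of wild type.

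Of the 18711 nuclear loci tested, 6801 (36.3%) differed between pdx3-3 and wild type, 3584 (19.2%) higher and 3217 (17.2%) lower. Large changes were mostly upward. At least 2-fold changes numbered 2098 (11.2%), 1615 higher (8.63%) and 483 lower (2.58%). At least 4-fold changes were 761 higher (4.07%) and 63 lower (0.337%), and changes of 16-fold or more were 153 higher (0.818%) and 2 lower (0.0107%). The median log2 fold change of all tested loci was −0.022, with quartiles of −0.25 and 0.23. The share of calls that were higher was 52.7%, and it depended on scaling, at 34.3% with upper-quartile factors, which moved the median of all loci to −0.15, and 63.5% with library size alone. With upper-quartile factors lower members also became more numerous in lists of few such calls, at 5 of vitamin B6 metabolism, 5 of the nitrate-responsive regulators, 3 each of the ethylene and phosphate lists 2 each of the jasmonate, senescence, low-sugar and cold lists and 1 each of the WRKY and sulfur lists. Without pdx3-3 libraries 1 and 2, 4030 loci were called, 2567 higher and 1463 lower, and 1963 changed at least 2-fold, 1569 higher and 394 lower. Genes called at least 2-fold higher took up 7.21%, 9.69% and 9.93% of nuclear counts in the pdx3-3 libraries, against 2.16%, 2.25% and 2.05% in wild type and 7.42% to 7.59% in pdx3-4. They were chosen as higher in these same pdx3-3 libraries, so a larger share than in wild type was fixed in advance. Library 1, the one with the most chloroplast and ribosomal counts, was the least changed of the 3 for these genes, with a median log2 against the wild-type mean of 1.61, against 1.94 and 1.96 in libraries 2 and 3. The part of the RNA make-up in these results was not tested.

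**Figure D2:**
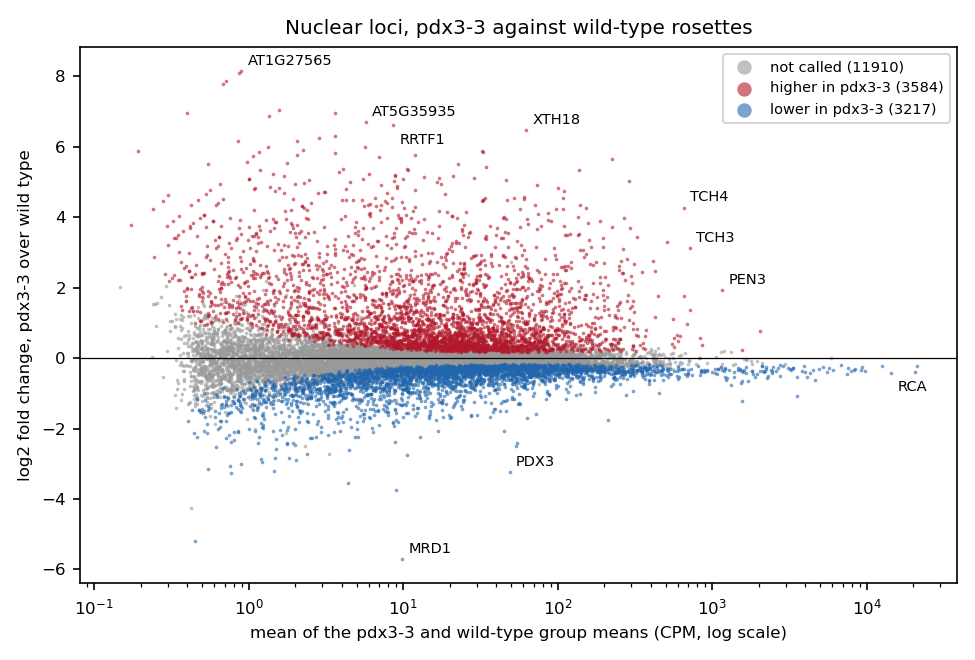
Log2 fold change of pdx3-3 over wild type (vertical axis) against the mean of the pdx3-3 and wild-type group means in CPM (horizontal log axis) for 18711 nuclear loci; red points were called higher, blue points lower and grey points not called. Most points far from 0 lie above it, while MRD1 and PDX3 lie far below.

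In 24.1% of loci tested every pdx3-3 library lay above every wild-type library, called or not. Among those called that also averaged 5 CPM or more in pdx3-3, the 10 largest rises took in an ethylene synthesis enzyme, an immune receptor, a calcium-binding protein and a cell wall enzyme. RRTF1, an ERF factor linked to redox signalling, had 1.81, 13.3 and 36.3 CPM in pdx3-3, against 0.423, 0.0961 and 0 CPM in wild type. The groups did not overlap, but the pdx3-3 libraries spread widely (log2 6.62, SE 1.45, adjusted p = 0.00450), and limma-voom did not call it (adjusted p = 0.221). XTH18, a xyloglucan endotransglucosylase of the cell wall, had 64.2, 149.6 and 158 CPM in pdx3-3, against 2.01, 1.1 and 1.07 CPM in wild type (log2 6.48, SE 0.40, adjusted p = 7.26e-07). ACS7, an ACC synthase and itself a PLP enzyme that starts ethylene synthesis, had 5.32, 7.91 and 8.28 CPM in pdx3-3, against 0.159, 0.048 and 0.0534 CPM in wild type. Its 5 counts over the wild-type group leave a summed ratio of 85.7 with a counting interval of 36.4 to 265. AT1G33760, annotated as an integrase-type DNA-binding protein, and AT3G01830, a calcium-binding EF-hand protein, rose with log2 5.88 and log2 6.0. AT4G14370, a TIR-NBS-LRR immune receptor gene, stood at 45.7, 68.9 and 78.6 CPM in pdx3-3, against 0.687, 1.73 and 0.855 CPM in wild type, without overlap (log2 5.86, SE 0.29, adjusted p = 3.16e-07). AT3G60470 and AT5G22540, both annotated as DUF247 transmembrane proteins, rose in all 3 libraries. AT3G60470 had 7.26, 7.37 and 6.78 CPM in pdx3-3, against 0.0529, 0.0961 and 0 CPM in wild type, a summed ratio of 138.7 with a counting interval of 47.1 to 675 over 3 wild-type counts, and AT5G22540 had log2 5.82. AT2G44240, without a described role, was highest in 1 library, with 1.19, 14.1 and 1.55 CPM in pdx3-3, against 0.159, 0 and 0.0534 CPM in wild type, and lost its call without pdx3-3 library 2 (adjusted p = 0.0632) or wild-type library 2 (0.0504) or without pdx3-3 libraries 1 and 2 (0.116). Limma-voom did not call AT2G44240 (adjusted p = 0.143). The pseudogene AT5G35935 completes the 10 and is described last.

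In 23.5% of loci every pdx3-3 library lay below every wild-type library. Among those called that averaged 5 CPM or more in wild type, the 10 largest falls were led by MRD1 (−5.7 on the log2 scale), which is described last, and held PDX3. AT3G09450, annotated as a fusaric acid resistance protein, had 0.438, 1.13 and 0.471 CPM in pdx3-3, against 11.1, 9.42 and 3.95 CPM in wild type (log2 −3.55, adjusted p = 0.000147). SAUR20, a small auxin-responsive growth protein, had 1.75, 0.933 and 1.13 CPM in pdx3-3, against 8.88, 7.97 and 5.98 CPM in wild type, and GER3, a germin of the cell wall, had 12.3, 15.2 and 20.2 CPM in pdx3-3, against 72.2, 78.9 and 122 CPM in wild type. Both sets lay wholly below wild type (log2 −2.61, adjusted p = 6.74e-06 and log2 −2.51, adjusted p = 1.04e-05). MYB34, a regulator of indolic glucosinolates, had 2.69, 3.44 and 2.4 CPM in pdx3-3, against 14.5, 15.3 and 14.9 CPM in wild type, again with no overlap (log2 −2.39, SE 0.18, adjusted p = 2.93e-06). AT1G20070 and AT2G15020, of unknown function, AT2G27420, a cysteine proteinase, and BGLU47, a beta-glucosidase, fell with log2 −2.75, −2.42, −2.25 and −2.24.

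The largest gains in CPM were in TCH4, TCH3, SZF1, PEN3 and CAT3. TCH4, a xyloglucan endotransglucosylase induced by touch, had 891, 1388 and 1453 CPM in pdx3-3, against 56.6, 64.1 and 72.7 CPM in wild type. TCH3, a calmodulin-like protein, had 989, 1340.2 and 1529.7 CPM in pdx3-3, against 137, 167 and 137 CPM in wild type, and SZF1, a tandem zinc finger protein of immune and salt responses, had 631, 1078 and 1054 CPM in pdx3-3, against 84.2, 109 and 86.4 CPM in wild type. In all 3 genes library 1 was the lowest of pdx3-3 and still far above the highest wild-type library (TCH4 log2 4.27, SE 0.18, adjusted p = 1.63e-07; TCH3 log2 3.13, SE 0.15, adjusted p = 2.9e-07; SZF1 log2 3.31, SE 0.20, adjusted p = 7.61e-07). PEN3, an ABC transporter that acts in penetration resistance, and CAT3, a catalase, averaged 1833 ± 326 CPM in pdx3-3 and 481 ± 89.6 CPM in wild type, and 2560.0 ± 218 CPM in pdx3-3 and 1499.7 ± 308 CPM in wild type (SD, n = 3 each). The largest losses of CPM were in photosynthesis. RBCS1A, a Rubisco small subunit, averaged 17791 ± 2019.7 CPM in pdx3-3 and 23468 ± 813 CPM in wild type, and RCA, Rubisco activase, 12394 ± 686 CPM in pdx3-3 and 16516 ± 1456 CPM in wild type. CAB2 and RBCS2B had log2 −0.37 and −1.06, and CAB1 had log2 −0.24, adjusted p = 0.0288, a call that was lost without any single pdx3-3 library or without wild-type library 2 (adjusted p = 0.0527 to 0.103). RBCS genes are near-identical, as are CAB1 and CAB2, so their split of reads is uncertain.

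Within vitamin B6 metabolism, 7 genes were tested and 1 rose, 3 fell and 3 did not pass the test, at a median log2 of −0.23. The 3 that fell include PDX3 itself, whose fall was fixed in advance by the choice of the mutant. Over all loci tested, 19.2% were higher and 17.2% lower. The synthase subunits PDX1.1 and RSR4 (PDX1.3) fell in step. PDX1.1 had 91.4, 95.2 and 98.6 CPM in pdx3-3, against 125, 149 and 124 CPM in wild type, and RSR4 had 136, 140.2 and 137 CPM in pdx3-3, against 196, 212 and 174 CPM in wild type, so that neither overlapped wild type. PDX1.2, the non-catalytic member of that family, had 6.44, 6.68 and 6.02 CPM in pdx3-3, against 4.34, 3.17 and 3.79 CPM in wild type, and was the member that rose. PDX2, SOS4 and PLR1 were at log2 −0.045, −0.060 and −0.23 and were not called. In other cofactor pathways, GCH (RIBA1, riboflavin synthesis) rose (log2 0.42, adjusted p = 0.00265), and of 7 tested members 1 rose, 2 fell and 4 did not pass the test. The 2 lower calls there, THI1 and BIO2, were both lost without pdx3-3 library 2 or 3 (adjusted p = 0.0694 to 0.112), and THI1 also without pdx3-3 library 1, wild-type library 1 or 2 or pdx3-4 library 2 (0.0508 to 0.102), and neither was called without pdx3-3 libraries 1 and 2 (0.155 and 0.0574).

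**Figure D3:**
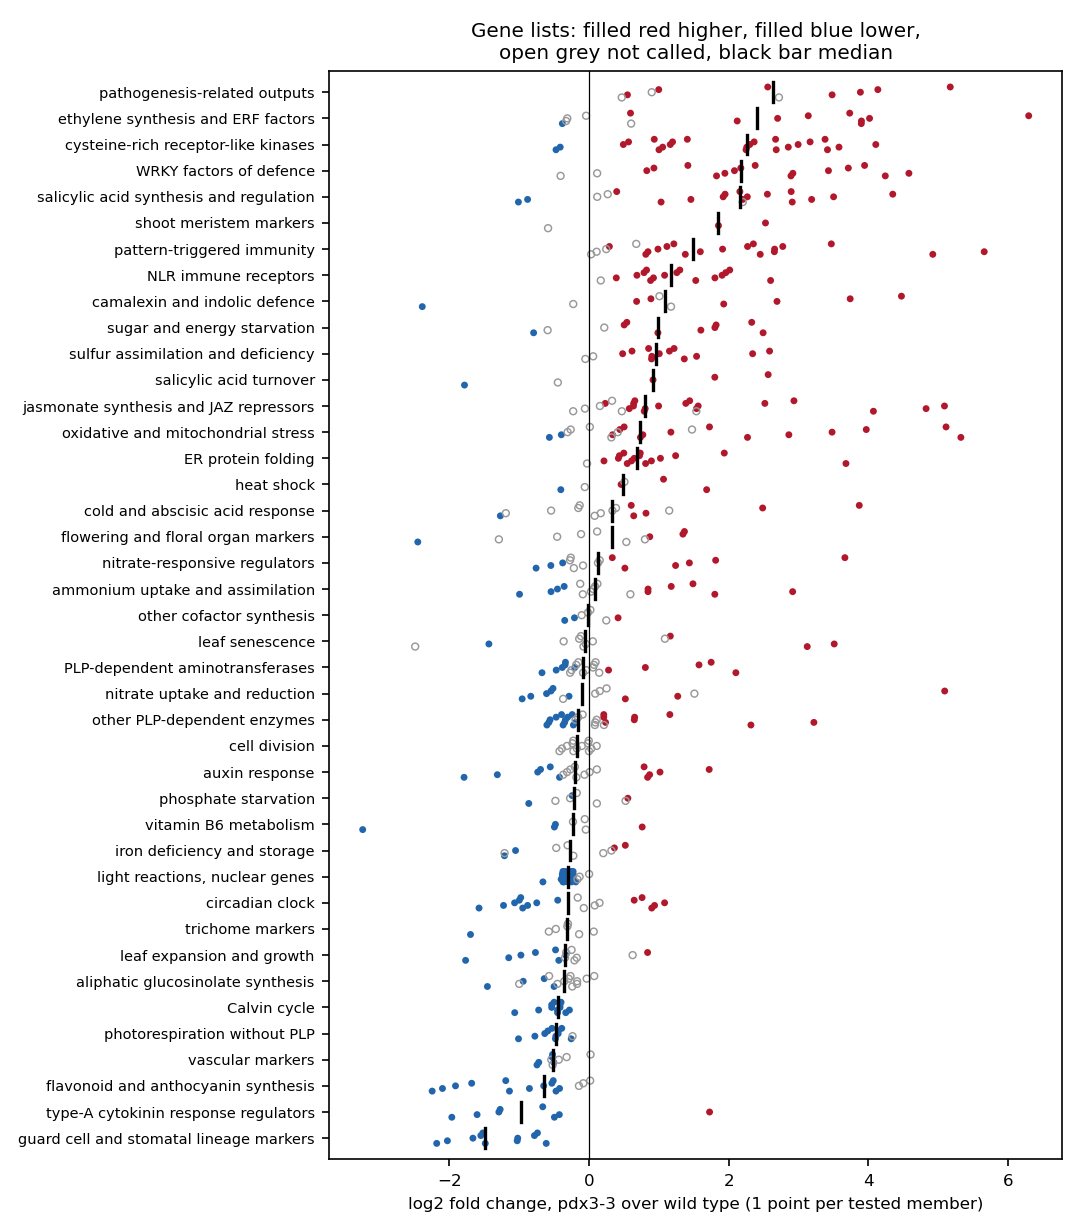
Log2 fold change of pdx3-3 over wild type for each tested member of 41 gene lists (1 point per member), ordered by the list median (black bar); filled red points rose, filled blue points fell and open grey points were not called. Immune lists lie at the top with medians up to 2.64, and guard cell and stomatal lineage markers at the bottom with a median of −1.49.

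Salicylic acid, the main hormone of defence against biotrophic pathogens, is made in Arabidopsis from chorismate through isochorismate synthase, the exporter EDS5 and the glutamate-conjugating enzyme PBS3. Of 19 tested genes of its synthesis and regulation, 14 rose, 2 fell and 3 did not pass the test, with a median log2 of 2.16. Among all loci tested, 19.2% were higher and 17.2% lower. EDS16 (ICS1) rose with log2 2.16, whereas its minor paralog ICS2 fell (log2 −0.88, adjusted p = 0.00780). EDS5 had 21, 18.4 and 16.5 CPM in pdx3-3, against 4.18, 3.8 and 3.58 CPM in wild type. PBS3 had 49.5, 50.5 and 51.8 CPM in pdx3-3, against 7.03, 7.45 and 5.88 CPM in wild type, without overlap and with nearly equal mutant libraries (log2 2.9, SE 0.10, adjusted p = 5.81e-08). SARD1, a transcription factor that switches these enzymes on, had 105, 170.2 and 131 CPM in pdx3-3, against 6.08, 8.21 and 5.55 CPM in wild type. The lowest SARD1 value in pdx3-3 was more than 10 times the highest in wild type (log2 4.35, SE 0.20, adjusted p = 2.47e-07). PAD4, a lipase-like partner of EDS1, had 66.9, 78.6 and 89.2 CPM in pdx3-3, against 10.3, 12.4 and 8.44 CPM in wild type (log2 2.91, adjusted p = 3.77e-07). EPS1, which converts the PBS3 product to salicylic acid, was called lower (log2 −1.01, adjusted p = 0.0191). Of the 2 lower calls 1 was lost without pdx3-3 library 2 or 3 or wild-type library 3, and both without pdx3-3 libraries 1 and 2. Among 5 tested turnover genes the hydroxylase DMR6 rose (60.04 ± 3.98 CPM in pdx3-3 and 17.2 ± 5.69 CPM in wild type, SD, n = 3 each; log2 1.8, adjusted p = 5.42e-05), as did DLO1 and UGT74F2 (log2 2.57 and 0.92). DLO1 was not called without pdx3-3 libraries 1 and 2 (adjusted p = 0.140). UGT74F1, at 0.563, 0.0982 and 0.235 CPM in pdx3-3, against 0.952, 0.48 and 1.55 CPM in wild type, overlapped, and its lower call was lost without pdx3-3 library 2 or 3 or wild-type library 1 or 3 (0.0594 to 0.119), and without pdx3-3 libraries 1 and 2.

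Most pathogenesis-related transcripts were higher too, and neither salicylic acid nor secreted protein was measured here. Of 10 pathogenesis-related outputs, 7 rose, 0 fell and 3 did not pass the test, at a median log2 of 2.64. The share of all tested loci that rose was 19.2%, and 17.2% fell. BGL2 (PR2), a beta-glucanase, had 359, 429 and 262 CPM in pdx3-3, against 24.7, 36.3 and 9.61 CPM in wild type. PR5, a thaumatin-like protein, had 215, 263 and 137 CPM in pdx3-3, against 17.9, 24.7 and 12.2 CPM in wild type, and PNP-A, a secreted natriuretic peptide, had 39.2, 42.7 and 40.7 CPM in pdx3-3, against 0.952, 1.63 and 0.748 CPM in wild type. None of the 3 overlapped (log2 3.89, adjusted p = 2.54e-05; log2 3.48, adjusted p = 3.41e-06; log2 5.17, adjusted p = 4.38e-08). AIG1, a GTPase first known as a resistance-induced transcript, rose with log2 4.14, SE 0.24, adjusted p = 6.11e-07. PR5 and PNP-A were also higher in pdx3-3 than in pdx3-4, which averaged 50.3 and 17 CPM (log2 2.03, SE 0.25, adjusted p = 0.00138 and log2 1.27, SE 0.11, adjusted p = 0.000220).

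WRKY factors bind the W box of defence promoters. In the list of 17 defence WRKY genes, 15 rose, 0 fell and 2 did not pass the test, with a median log2 of 2.17. Across all loci tested, 19.2% rose and 17.2% fell. WRKY53 had 95.8, 103 and 119 CPM in pdx3-3, against 6.61, 10.09 and 7.42 CPM in wild type, and WRKY46 had 86.9, 144 and 115 CPM in pdx3-3, against 4.18, 6.25 and 3.95 CPM in wild type. WRKY15 and WRKY25, both at higher wild-type levels, had 104, 124 and 144 CPM in pdx3-3, against 26.6, 29.4 and 31.7 CPM in wild type, and 41.5, 51.9 and 51.9 CPM in pdx3-3, against 12.6, 14 and 11.1 CPM in wild type, in that order. All 4 were separate from wild type, with log2 of 3.71, 4.58, 2.08 and 1.95. WRKY53 and WRKY46 were lower in pdx3-4 than in pdx3-3 (29 and 46.5 CPM; pdx3-3 against pdx3-4, log2 1.87, SE 0.14, adjusted p = 0.000108 and log2 1.31, SE 0.17, adjusted p = 0.00198). A difference between alleles was tested for all loci, and 1162 (6.21%) were called, 616 (3.29%) higher and 546 lower in pdx3-3. At least 2-fold differences made up 1.57%, 1.3% higher and 0.267% lower. The count of 1162 rests on single libraries, at 540 without pdx3-3 library 2, 745 without pdx3-3 library 3, 1826 without wild-type library 3, 622 without pdx3-4 library 2 and 418 without pdx3-4 library 3, and it was 361 without pdx3-3 libraries 1 and 2. In pdx3-4 against the same wild type 39.5% were called, with 8.13% at least 2-fold higher.

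Most tested members of the lists of immune receptors and immune signalling genes were higher. By comparison, 19.2% of all loci tested were higher and 17.2% lower. In pattern-triggered immunity, 22 genes were tested, and 18 rose, 0 fell and 4 did not pass the test, at a median log2 of 1.49. They included the receptor kinase SOBIR1 (log2 2.66), which holds receptor-like proteins, and the MAP kinase MPK3, which had 454, 644 and 693 CPM in pdx3-3, against 103, 132 and 91.8 CPM in wild type. PUB23, a U-box ubiquitin ligase that damps immune signalling, had 96.2, 164 and 164 CPM in pdx3-3, against 6.77, 4.8 and 2.4 CPM in wild type, and PHI-1, an early phosphate- and stress-induced gene, had 239.5, 575 and 504 CPM in pdx3-3, against 10.0999, 7.01 and 9.03 CPM in wild type. Both were lowest in mutant library 1, yet without overlap (log2 4.92, adjusted p = 8.82e-07 and log2 5.66, adjusted p = 5.56e-07). Of 16 NLR receptors, 15 rose, 0 fell and 1 did not pass the test, at a median of 1.17. All 3 helper receptors rose, ADR1 with 47.7, 59.8 and 54.1 CPM in pdx3-3, against 13.6, 14.7 and 11.6 CPM in wild type, ADR1-L1 with log2 1.8, SE 0.11, adjusted p = 8.56e-07 and ADR1-L2 with log2 1.96, SE 0.10, adjusted p = 3.91e-07. The sensor receptor RPM1, which guards RIN4, had log2 1.26, SE 0.10, adjusted p = 5.08e-06. All 23 tested cysteine-rich receptor-like kinases were called, 21 higher and 2 lower, with a median log2 of 2.26. CRK23 had 11.5, 11 and 12.3 CPM in pdx3-3, against 0.74, 0.673 and 0.588 CPM in wild type, and CRK10, CRK11 and ARCK1 (CRK45) had log2 2.3, 2.68 and 2.67. The CRK genes lie in tandem and are alike in sequence, so reads could be split between neighbours, as the treatment of multi-mapped reads is not given in the sources used here. The 2 lower members were CRK21 and CRK22 (log2 −0.41 and −0.47), and 1 of the 2 calls was lost without pdx3-3 library 2 or 3 or wild-type library 1 or 2, and both without pdx3-3 libraries 1 and 2.

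Indolic glucosinolates and camalexin are tryptophan-derived defence compounds. Of 10 tested genes 6 rose, 1 fell and 3 did not pass the test, and 4 rose without pdx3-3 libraries 1 and 2. MYB51 had 111, 149 and 174 CPM in pdx3-3, against 9.68, 13.4 and 9.29 CPM in wild type, higher in every mutant library, while MYB34 of the same pathway was lower. CYP81F2, which hydroxylates indole glucosinolates for penetration resistance, had 73.9, 81.3 and 117 CPM in pdx3-3, against 4.18, 6.1 and 1.82 CPM in wild type (log2 4.47, SE 0.31, adjusted p = 1.41e-06), and the median of the list was 1.09. Among 15 aliphatic glucosinolate genes 0 rose, 4 fell and 11 did not pass the test, with a median of −0.35, and 6 fell without wild-type library 2. Over all loci tested, 19.2% were higher and 17.2% lower. The lower members were the regulator MYB28, at 20.8, 20.1 and 22 CPM in pdx3-3, against 46.5, 51.7 and 74.2 CPM in wild type, with MYB29 (log2 −0.94) and the glucosyltransferase AT2G31790 (UGT74C1, log2 −0.50). SOT18, a sulfotransferase, was called (log2 −0.64, adjusted p = 0.0272) but not without pdx3-3 library 2 or 3 or wild-type library 3 (0.0614 to 0.104), and neither SOT18 nor MYB29 was called without pdx3-3 libraries 1 and 2 (0.0688 and 0.0703).

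Jasmonate and ethylene are the hormones of wounding and necrotroph defence. Beside the counts below, 19.2% of all loci tested were higher and 17.2% lower. In the jasmonate list of 23 genes, 17 rose, 0 fell and 6 did not pass the test, at a median log2 of 0.81, and 1 fell without pdx3-3 libraries 1 and 2. LOX4, a lipoxygenase of jasmonate synthesis, had 117, 222 and 242 CPM in pdx3-3, against 8.09, 7.3 and 5.02 CPM in wild type. AOC3, an allene oxide cyclase, had 12.1, 21.3 and 19.4 CPM in pdx3-3, against 0.687, 0.913 and 1.55 CPM in wild type, and the repressor JAZ1 had 80.0, 125 and 108 CPM in pdx3-3, against 13.1, 12.2 and 15.6 CPM in wild type. In each, mutant library 1 was the lowest of the 3 and still above all of wild type (log2 4.83, adjusted p = 1.25e-06; log2 4.07, adjusted p = 2.83e-05; log2 2.94, adjusted p = 4.76e-06). Of 14 ethylene genes 9 rose, 1 fell and 4 did not pass the test, at a median of 2.41, where pdx3-4 against the same wild-type libraries, which both comparisons share, had a median of 0.54. ERF6, ERF104 and AT5G51190 (ERF105), stress-induced factors, were among the members with the smallest adjusted p. AT5G51190 had 141, 180.4 and 185 CPM in pdx3-3 and 34.4, 28.3 and 24.6 CPM in pdx3-4, against 8.62, 14 and 11.2 CPM in wild type, and ERF104 had 240.1, 325 and 318 CPM in pdx3-3 and 108, 74.5 and 67.7 CPM in pdx3-4, against 27.1, 40.7 and 32.1 CPM in wild type. ERF6 averaged 84.4 ± 22.3 CPM in pdx3-3, 26.4 ± 3.35 CPM in pdx3-4 and 5.2 ± 0.501 CPM in wild type (SD, n = 3 each). The differences between the alleles were log2 2.53, SE 0.17, adjusted p = 6.37e-05 for AT5G51190, log2 1.82, SE 0.19, adjusted p = 0.000673 for ERF104 and log2 1.68, SE 0.17, adjusted p = 0.000410 for ERF6. The number of members that fell was 2 without wild-type library 3 and 0 without pdx3-3 libraries 1 and 2.

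Genes of oxidative and mitochondrial stress were also raised, where 19.2% of all loci tested were higher and 17.2% lower. Of 21 tested, 13 rose, 2 fell and 6 did not pass the test, with a median log2 of 0.74, and 1 fell when any 1 library was left out, except for wild-type library 2, and 1 without pdx3-3 libraries 1 and 2. The mitochondrial outer membrane ATPase BCS1 (OM66) had 207, 310.3 and 288 CPM in pdx3-3 and 71.1, 67.8 and 72.7 CPM in pdx3-4, against 5.66, 8.17 and 6.2 CPM in wild type (pdx3-3 against wild type, log2 5.33, SE 0.18, adjusted p = 4.38e-08; against pdx3-4, log2 1.93, SE 0.15, adjusted p = 0.000108). STZ (ZAT10), a zinc finger repressor, had 185, 281 and 281 CPM in pdx3-3, against 20.6, 25 and 21.3 CPM in wild type, and the glutathione transferases GSTF6 and GSTF8 had log2 2.27 and 1.17. GSTF6 is near-identical to its neighbour GSTF7. Protein folding in the endoplasmic reticulum, which supplies secreted defence proteins, was raised in 15 of 16 genes, at a median of 0.69, against 0.32 for pdx3-4 over the same wild type. BIP3, the stress-induced lumenal chaperone, had 10.4, 12 and 13.1 CPM in pdx3-3, against 0.635, 1.44 and 0.641 CPM in wild type. The transcription factor BZIP60 and its activating splicing enzyme IRE1A rose with log2 1.94, SE 0.15, adjusted p = 3.42e-06, and log2 1.02, SE 0.097, adjusted p = 1.39e-05. AT5G07340 (CNX2), a calnexin, had log2 0.65, SE 0.060, adjusted p = 1.16e-05. Heat shock genes were few, 6 tested of 11, and 5 small heat shock genes did not pass the filter. HSFA2 and HSP90.1 rose (log2 1.69, adjusted p = 0.00341; log2 1.07, adjusted p = 0.000747), while HSP70-4 was called (log2 0.46, adjusted p = 0.0331) but not without pdx3-3 library 1 or wild-type library 2 or 3 (0.0635 to 0.115). HSP101 was called lower (log2 −0.40, adjusted p = 0.0491) but not when any single library other than pdx3-3 library 3 or wild-type library 2 was left out (0.0630 to 0.182). Without pdx3-3 libraries 1 and 2, neither HSP70-4 nor HSP101 was called (0.296 and 0.525).

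Nitrate in leaves is reduced by nitrate and nitrite reductase to ammonium, which is assimilated through glutamine synthetase and glutamate synthase. The nitrate genes moved in both directions, as did all loci tested, of which 19.2% were higher and 17.2% lower. Of 14 tested genes of uptake and reduction, 3 rose, 6 fell and 5 did not pass the test, at a median log2 of −0.098, and 2 rose and 4 fell without pdx3-3 libraries 1 and 2. NIA1, a nitrate reductase, had 114, 116 and 128 CPM in pdx3-3, against 214, 237 and 242 CPM in wild type, and NIR1, nitrite reductase, had 289, 298 and 284 CPM in pdx3-3, against 459, 459 and 409 CPM in wild type. Both were below wild type in every library (log2 −0.96, SE 0.086, adjusted p = 9.91e-06; log2 −0.61, SE 0.068, adjusted p = 4.53e-05). WR3 (NRT3.1), the partner of high-affinity nitrate transporters, had 12.9, 14.3 and 11.1 CPM in pdx3-3, against 5.55, 4.76 and 5.55 CPM in wild type. The high-affinity transporter NRT2.5, known from nitrogen-starved plants, had 1.75, 1.28 and 2.82 CPM in pdx3-3 and 0.138, 0.142 and 0.195 CPM in pdx3-4, against 0.0529, 0.048 and 0.0534 CPM in wild type. Over 3 wild-type counts the summed ratio of NRT2.5 was 38.6, with a counting interval of 12.9 to 190, so its size is loosely fixed (log2 5.09, adjusted p = 1.95e-05, and pdx3-3 against pdx3-4, log2 3.58, SE 0.41, adjusted p = 0.000907). Among 15 nitrate-responsive regulators 6 rose, 3 fell and 6 did not pass the test, at a median of 0.13, and 2 fell without pdx3-3 library 2, and 1 without pdx3-3 libraries 1 and 2. BT2 and BT1, BTB and TAZ domain scaffold proteins that restrain nitrate uptake, rose. BT2 had 139, 114 and 157 CPM in pdx3-3 and 259, 249 and 266 CPM in pdx3-4, against 7.93, 8.07 and 16.5 CPM in wild type, and BT1 had 67.1, 79.7 and 90.73 CPM in pdx3-3 and 130.3, 117 and 119 CPM in pdx3-4, against 20.9, 20.9 and 25.7 CPM in wild type. In both the pdx3-3 level was below that of pdx3-4 (log2 −0.92, SE 0.21, adjusted p = 0.0258; log2 −0.62, SE 0.11, adjusted p = 0.00980). AT1G25550 (HHO3), a nitrate-induced repressor, rose with log2 1.24, SE 0.073, adjusted p = 6.23e-07, and G6PD2, a plastid glucose-6-phosphate dehydrogenase, fell with log2 −0.76, SE 0.088, adjusted p = 6.15e-05.

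For ammonium uptake and assimilation, 17 genes were tested and 6 rose, 4 fell and 7 did not pass the test, at a median log2 of 0.087. The shares over all loci tested were 19.2% higher and 17.2% lower. ASN1, the dark-induced asparagine synthetase, had 48, 50.9 and 58.3 CPM in pdx3-3, against 5.13, 6.53 and 9.19 CPM in wild type. GSR 1 (GLN1;1), a cytosolic glutamine synthetase, had 101, 133 and 137 CPM in pdx3-3, against 31, 39.1 and 36.3 CPM in wild type, and GDH1, glutamate dehydrogenase, had 82.4, 89.5 and 94.7 CPM in pdx3-3, against 50.5, 51.9 and 46 CPM in wild type. No library overlapped (log2 2.92, adjusted p = 6.34e-06; log2 1.8, adjusted p = 2.07e-06; log2 0.85, adjusted p = 1.23e-05). AMT2 (AMT2;1), an ammonium transporter, rose with log2 1.49, SE 0.11, adjusted p = 3.18e-06. The chloroplast enzymes GS2 and GLU1, which reassimilate photorespiratory ammonium, fell with log2 −0.35 and −0.54.

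Among enzymes that need PLP, some rose and some fell, where 19.2% of all loci were higher and 17.2% lower. Of 21 aminotransferases, 5 rose, 6 fell and 10 did not pass the test, at a median log2 of −0.085, and of 27 other PLP enzymes 8 rose, 12 fell and 7 did not pass the test, at −0.15. These counts lean on single libraries and on scaling. Without pdx3-3 libraries 1 and 2 the aminotransferases had 3 higher and 2 lower and the other enzymes 3 higher and 6 lower, and with upper-quartile factors 9 aminotransferases were lower and 5 of the other enzymes higher. Without pdx3-3 library 2 the aminotransferases had 3 higher and 4 lower, without pdx3-3 library 3 they had 3 lower, without wild-type library 1 they had 3 of each and without wild-type library 2 they had 4 lower, and the other enzymes had 5 higher and 8 lower without pdx3-3 library 2. The members with the smallest adjusted p, given here, kept their calls. AlaAT1 and ALAAT2, alanine aminotransferases, rose, ALAAT2 with 11.7, 12.1 and 14.4 CPM in pdx3-3, against 4.02, 4.18 and 4.65 CPM in wild type (log2 1.58, SE 0.12, adjusted p = 2.78e-06) and AlaAT1 with log2 0.81, adjusted p = 8.15e-05. BCAT-2, a branched-chain aminotransferase, had 4.75, 3.14 and 3.62 CPM in pdx3-3, against 0.529, 1.44 and 0.641 CPM in wild type (log2 2.1, adjusted p = 0.000575). TAR2, which starts auxin synthesis from tryptophan, fell with log2 −0.67, SE 0.079, adjusted p = 6.73e-05. GAD (GAD1), glutamate decarboxylase of the GABA shunt, had 7.01, 7.71 and 10.7 CPM in pdx3-3, against 1.0, 0.769 and 0.961 CPM in wild type (log2 3.22, SE 0.24, adjusted p = 2.76e-06). MTO1 (CGS1), cystathionine gamma-synthase of methionine synthesis, had 226, 224 and 215 CPM in pdx3-3, against 331, 326 and 352 CPM in wild type, and ADC1, arginine decarboxylase of polyamine synthesis, 97.1, 114 and 114 CPM in pdx3-3, against 153, 175 and 157 CPM in wild type. Both fell without overlap (log2 −0.60, SE 0.063, adjusted p = 2.94e-05; log2 −0.57, SE 0.082, adjusted p = 0.000278). SPT1 (LCB2B), a subunit of serine palmitoyltransferase in sphingolipid synthesis, rose with log2 0.65, SE 0.090, adjusted p = 0.000215.

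Photosynthesis and photorespiration genes fell by small amounts, where 19.2% of all loci tested were higher and 17.2% lower. All 12 Calvin cycle genes fell, at a median log2 of −0.45. Of 34 nuclear light reaction genes 0 rose, 31 fell and 3 did not pass the test, at a median of −0.30, and of 12 photorespiratory genes that need no PLP, 0 rose, 11 fell and 1 did not pass the test, at −0.48. Without pdx3-3 libraries 1 and 2, 10 light reaction genes and 7 photorespiratory genes fell. NPQ4 (PSBS), the protein that triggers heat dissipation in photosystem II, had 1393, 1276 and 1278 CPM in pdx3-3, against 2071, 2310.0 and 1853 CPM in wild type. DRT112, a plastocyanin, had 3572, 3275 and 3415 CPM in pdx3-3, against 4482, 4715 and 4326 CPM in wild type, and GAPA, a subunit of chloroplast glyceraldehyde phosphate dehydrogenase, had 2017, 1856 and 1859.5 CPM in pdx3-3, against 2646, 2994 and 2456 CPM in wild type. Each was lower in all 3 mutant libraries (log2 −0.66, adjusted p = 0.000127; log2 −0.40, adjusted p = 0.000720; log2 −0.50, adjusted p = 0.000579). CP12-2, which ties that enzyme to phosphoribulokinase, fell with log2 −0.53, SE 0.076, adjusted p = 0.000274. In photorespiration, CAT2, the main peroxisomal catalase of leaves, had 1006, 977 and 945 CPM in pdx3-3, against 1826, 1763 and 1419 CPM in wild type (log2 −0.77, SE 0.099, adjusted p = 0.000127). AT1G11860, the T-protein of glycine decarboxylase, GOX1, glycolate oxidase, and DiT1, a plastid dicarboxylate transporter, fell with log2 −0.63, −0.53 and −0.59.

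Flavonoids include the anthocyanins, red leaf pigments. Of 15 tested genes 0 rose, 12 fell and 3 did not pass the test, at a median log2 of −0.65. The whole set of tested loci had 19.2% higher and 17.2% lower. AT4G14090, an anthocyanin glucosyltransferase, had 0.876, 1.47 and 0.471 CPM in pdx3-3, against 3.91, 4.23 and 5.29 CPM in wild type. GSTF12 (TT19), which carries anthocyanins to the vacuole, had 1.63, 1.62 and 0.80 CPM in pdx3-3, against 5.29, 4.52 and 7.37 CPM in wild type, and DFR, dihydroflavonol reductase, 2.69, 4.57 and 1.51 CPM in pdx3-3, against 9.25, 9.42 and 14.4 CPM in wild type. No pdx3-3 library reached wild type (log2 −2.25, adjusted p = 0.000345; log2 −2.1, adjusted p = 0.000121; log2 −1.91, adjusted p = 0.000609). DFR averaged 8.43 CPM in pdx3-4, so that the alleles differed (log2 −1.53, SE 0.31, adjusted p = 0.0165). 4CL3, a coumarate ligase early in the path, fell with log2 −1.14, SE 0.19, adjusted p = 0.000728.

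In sulfur assimilation 12 of 14 tested genes rose, with none lower, at a median log2 of 0.95. For all loci tested, the shares were 19.2% higher and 17.2% lower. ATSDI1, a sulfur-deficiency gene that represses aliphatic glucosinolate synthesis, had 40.4, 45.7 and 41 CPM in pdx3-3, against 6.19, 4.42 and 10.7 CPM in wild type. APR3, adenylylsulfate reductase, had 288, 299 and 271 CPM in pdx3-3, against 113, 103 and 116 CPM in wild type. AT5G26220 (GGCT2;1), which breaks down glutathione, and AT1G04770 (SDI2) rose with log2 2.34, SE 0.21, adjusted p = 8.77e-06, and log2 1.22, SE 0.12, adjusted p = 2.32e-05. Genes induced by low sugar rose in 8 of 11 cases, while SWEET11 fell (log2 −0.79), at a median of 0.99. DIN10, a raffinose synthase homolog induced by darkness, had 389, 508 and 601 CPM in pdx3-3 and 923, 899 and 1181 CPM in pdx3-4, against 105, 80.9 and 112 CPM in wild type, and the hexose transporter STP1 had 327, 406 and 542 CPM in pdx3-3 and 675, 681 and 1016 CPM in pdx3-4, against 72.7, 75.2 and 78.4 CPM in wild type. In both, pdx3-3 lay between pdx3-4 and wild type (pdx3-3 against pdx3-4, log2 −1.0, SE 0.17, adjusted p = 0.00700, and log2 −0.90, SE 0.19, adjusted p = 0.0193). TPS8 and TPS11, class II trehalose phosphate synthase proteins, rose with log2 1.6 and 0.99.

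Of 18 tested clock genes, 5 rose, 9 fell and 4 did not pass the test, with a median log2 of −0.30. Beside them, 19.2% of all loci tested were higher and 17.2% lower. LHY had 26.6, 26.9 and 26.7 CPM in pdx3-3, against 63.7, 66.5 and 56.9 CPM in wild type, CCA1 had 81, 73.3 and 84.2 CPM in pdx3-3, against 146, 157 and 136 CPM in wild type and RVE8 had 14.4, 15.1 and 15.2 CPM in pdx3-3, against 28.7, 29.9 and 27.8 CPM in wild type. These MYB factors, which peak around dawn, lay lower in every pdx3-3 library, as did CDF3, a DOF repressor (log2 −1.22, adjusted p = 5.74e-07; log2 −0.88, adjusted p = 1.35e-05; log2 −0.95, adjusted p = 3.22e-06; log2 −1.57, adjusted p = 8.02e-07). The evening gene TOC1 rose with log2 1.08, and LUX (PCL1) with 0.90. No time of harvest was among the labels used here, so a difference in clock phase and one in level cannot be told apart.

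Most type-A cytokinin response regulators fell, while the other growth lists were called in part. Of 14 leaf growth genes 1 rose, 7 fell and 6 did not pass the test, at a median log2 of −0.34, and 4 were lower without pdx3-3 library 2 or 3 or wild-type library 1 and without pdx3-3 libraries 1 and 2. The member that rose was not called when any 1 library was left out, except for wild-type library 2 or 3, nor without pdx3-3 libraries 1 and 2. EXPA1, an expansin that loosens leaf cell walls, had 113, 81.7 and 92.2 CPM in pdx3-3, against 368, 329.9 and 278 CPM in wild type (log2 −1.77, SE 0.13, adjusted p = 2.56e-06), and EXPA8 had 74.7, 65 and 71.3 CPM in pdx3-3, against 175, 177 and 116 CPM in wild type (log2 −1.15, SE 0.14, adjusted p = 9.2e-05). Of 8 type-A response regulators, the negative feedback genes of cytokinin signalling, 7 fell, at a median of −0.97. ARR15 had 2.44, 2.06 and 1.22 CPM in pdx3-3, against 6.72, 7.88 and 7.42 CPM in wild type, and RR16 (ARR16) had 3.57, 3.09 and 3.01 CPM in pdx3-3, against 8.88, 9.85 and 10.5 CPM in wild type. RR5 (ARR5) rose instead, at 20.9, 27.3 and 24.5 CPM in pdx3-3, against 6.56, 8.79 and 6.57 CPM in wild type (log2 1.73, SE 0.15, adjusted p = 6.53e-06). Of 19 auxin genes 5 rose, 6 fell and 8 did not pass the test, at −0.20, beside 19.2% higher and 17.2% lower over all loci. Lower members numbered 4 without pdx3-3 library 3 or wild-type library 1, and 3 without pdx3-3 libraries 1 and 2. IAA2, SHY2 (IAA3) and IAA6, Aux/IAA repressors, rose with log2 0.84, 0.87 and 1.72, and the efflux carrier PIN7 fell with log2 −0.73, SE 0.11, adjusted p = 0.000312. None of 13 cell division genes was called by edgeR, at a median of −0.17, and with upper-quartile factors 4 were lower.

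Other stress and nutrient lists were called in part, where 19.2% of all loci tested were higher and 17.2% lower. Of 15 cold and abscisic acid genes 5 rose, 1 fell and 9 did not pass the test, and 3 rose without pdx3-3 library 2. CBF2, a cold-response factor, had 3.82, 16.5 and 19.7 CPM in pdx3-3, against 0.635, 1.44 and 0.641 CPM in wild type (log2 3.87, adjusted p = 0.000466), while its tandem neighbour DREB1A (CBF3) was called lower (log2 −1.27, adjusted p = 0.0116) but not without wild-type library 2 (0.0564) or without pdx3-3 libraries 1 and 2 (0.126). Of 12 senescence genes 3 rose, 1 fell and 8 did not pass the test. SAG21 and BCB, which also respond to oxidative stress, rose with log2 3.13, SE 0.21, adjusted p = 1.24e-06, and log2 3.51, SE 0.24, adjusted p = 1.41e-06. NAC6 (NAC092), a senescence regulator, fell with log2 −1.43, SE 0.23, adjusted p = 0.000599. Of 10 iron genes 2 rose, 2 fell and 6 did not pass the test, with NAS4, nicotianamine synthase, at log2 −1.21, adjusted p = 0.000992 and BTS, an iron-sensing ligase, at log2 0.52, adjusted p = 0.00160. OPT3, an iron transporter, was called (log2 0.36, adjusted p = 0.0292) but not without pdx3-3 library 2 or 3 or wild-type library 1 or 2 (0.0510 to 0.0900), nor without pdx3-3 libraries 1 and 2 (0.118). The ferritin FER1 overlapped, at 224, 221 and 97.8 CPM in pdx3-3, against 603, 213 and 307 CPM in wild type. Its call (log2 −1.05, adjusted p = 0.0487) was lost when any 1 library was left out, wild-type 2 and 3 excepted (0.0526 to 0.227). Of 8 phosphate genes 1 rose, 2 fell and 5 did not pass the test. The lower calls were PHO2, lost without pdx3-3 library 1 or wild-type library 1 or 3 (0.0534 to 0.0837), and PHO1, lost without pdx3-3 library 2 or wild-type library 3 (0.0718 to 0.0973), and both were lost without pdx3-3 libraries 1 and 2 (0.258 and 0.273). SPX1, an inositol pyrophosphate sensor, had 23.3, 21.6 and 26.5 CPM in pdx3-3 and 12.3, 10.4 and 9.51 CPM in pdx3-4, against 18.5, 13.6 and 16.5 CPM in wild type. Every pdx3-3 library lay above the other 6 (log2 0.56, adjusted p = 0.00585; pdx3-3 against pdx3-4, log2 1.15, SE 0.13, adjusted p = 0.000964).

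Markers of leaf cell types also differed, where 19.2% of all loci tested were higher and 17.2% lower. All 11 guard cell and stomatal lineage markers fell, 8 of them at least 2-fold, at a median log2 of −1.49. Their summed level was 58.9 to 67.9 CPM in pdx3-3 against 108 to 127 CPM in wild type. Without pdx3-3 libraries 1 and 2, 7 fell. TMM, a receptor-like protein of stomatal spacing, had 5.75, 5.4 and 4.8 CPM in pdx3-3, against 14.8, 14.1 and 17.7 CPM in wild type. SPCH, the factor that starts the lineage, had 3.19, 2.9 and 2.31 CPM in pdx3-3, against 6.08, 5.96 and 4.97 CPM in wild type, and MYB60, a guard cell factor, had 4.19, 3.83 and 4.24 CPM in pdx3-3, against 12.2, 13.1 and 9.83 CPM in wild type. Each was lower in all mutant libraries (log2 −1.55, SE 0.15, adjusted p = 1.29e-05; log2 −1.03, SE 0.16, adjusted p = 0.000467; log2 −1.52, SE 0.13, adjusted p = 6.72e-06). KAT1, the guard cell potassium channel, fell with log2 −0.74, SE 0.12, adjusted p = 0.000518. Of 7 trichome markers 1 fell, TRY (log2 −1.71, SE 0.24, adjusted p = 0.000227), and 3 fell without wild-type library 3. The summed trichome markers, at 64.0 to 69.6 CPM in pdx3-3 against 55.9 to 82.1 CPM in wild type, overlapped. Of 10 vascular markers 0 rose, 5 fell and 5 did not pass the test, with a summed 293 to 335 CPM in pdx3-3 against 373 to 562 CPM in wild type. Without pdx3-3 library 1 or 2 or wild-type library 3, 3 fell, and with upper-quartile factors 8 fell. None of those vascular calls held without pdx3-3 libraries 1 and 2, among them SUC2, the phloem sucrose carrier (adjusted p = 0.165). Of 8 root markers, 7 did not pass the filter and PYK10, at 27.8, 48.5 and 19.3 CPM in pdx3-3, against 44, 40.4 and 42.8 CPM in wild type, overlapped (log2 −0.41, adjusted p = 0.266), and was called lower without pdx3-3 library 2 (0.00873) or without pdx3-3 libraries 1 and 2 (0.00639).

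The KNOX genes KNAT1 and STM, which mark the shoot meristem, were at low levels but higher in the mutant. KNAT1 had 3.57, 1.72 and 4.0 CPM in pdx3-3, against 0.37, 0.576 and 0.641 CPM in wild type, and STM had 1.38, 1.13 and 2.16 CPM in pdx3-3, against 0.264, 0.336 and 0.694 CPM in wild type, neither overlapping (log2 2.53, SE 0.35, adjusted p = 0.000227; log2 1.85, SE 0.40, adjusted p = 0.00377). CUC2 was not called (log2 −0.59, adjusted p = 0.339), and WUS, CLV3, KNAT2, CUC1 and CUC3 did not pass the filter. AG, the floral homeotic gene, had 0.563, 0.491 and 0.565 CPM in pdx3-3, against 2.75, 3.84 and 2.3 CPM in wild type (log2 −2.45, SE 0.28, adjusted p = 5.21e-05), and AGL8 (FUL) rose with log2 1.35, SE 0.33, adjusted p = 0.00812. SEP3 and SEP1 were called higher (log2 1.37, adjusted p = 0.0133; log2 0.87, adjusted p = 0.0360), but SEP3 not without pdx3-3 library 3 (0.0675) and SEP1 not without any 1 of the pdx3-3 libraries, wild-type library 1 or 2 or pdx3-4 library 1 (0.0501 to 0.121), nor without pdx3-3 libraries 1 and 2 (0.283). Without those libraries 2 floral markers were called in each direction. Whether meristem or floral tissue took a different share of the rosette was not tested.

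The promoters of the raised genes were read for defence motifs, in the 250 bases before each annotated start in TAIR10.1, on both strands. The W box was searched as TTGACC or TTGACT. Its share was 48.2% of 761 promoters of genes at least 4-fold higher and 43.7% of 1615 promoters of genes at least 2-fold higher, against 28.1% of all 18695 promoters read. Genes higher by less than 2-fold had it in 32.6%, genes not called in 26.7%, genes lower by less than 2-fold in 22.2% and genes at least 2-fold lower in 23.2%. The CGCGT core that CAMTA calcium-calmodulin factors bind was in 17.5%, 14.4%, 10.8%, 6.45%, 6.59% and 4.36% of those 6 classes in the same order, and in 7.56% of all promoters. In genes at least 4-fold higher, the as-1 core TGACG, which differs from the last bases of the W box in its final base, was in 23.5% against 19.4% of all, the G box CACGTG in 6.96% against 7.39%, the GCC box GCCGCC in 2.5% against 1.97% and AATATCT, the end of the evening element, in 11.8% against 10.2%. The median GC content was 31.2% in genes at least 4-fold higher and 31.6% over all. Matches are letters only, and binding was not measured here. Below are 6 promoters of raised defence genes named above that hold at least 2 W boxes, printed so that their number and spacing can be seen. They were chosen after their values and letters were seen, and other raised genes, such as MYB51 and ADR1, hold none in this window, while the lower gene EXPA8 holds 2. Each runs 5′ to 3′ on the strand of its gene, from RefSeq's TAIR10.1 genome, with W boxes of either strand in capitals. EDS5 is chr4:18185187-18185436 (plus), WRKY53 chr4:12393983-12394232 (minus), CRK11 chr4:12143859-12144108 (minus), PUB23 chr2:15084560-15084809 (minus), SZF1 chr3:20775970-20776219 (plus) and CYP81F2 chr5:23187590-23187839 (plus).
EDS5: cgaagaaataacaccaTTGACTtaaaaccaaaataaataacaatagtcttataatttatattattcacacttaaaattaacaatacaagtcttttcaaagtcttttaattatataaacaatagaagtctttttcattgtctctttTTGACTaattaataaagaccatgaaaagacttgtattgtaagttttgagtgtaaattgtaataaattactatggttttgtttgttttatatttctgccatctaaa
WRKY53: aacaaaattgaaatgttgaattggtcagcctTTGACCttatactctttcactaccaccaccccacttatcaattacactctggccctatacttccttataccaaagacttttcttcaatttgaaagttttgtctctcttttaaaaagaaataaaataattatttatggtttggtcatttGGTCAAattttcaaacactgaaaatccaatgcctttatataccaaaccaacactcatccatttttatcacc
CRK11: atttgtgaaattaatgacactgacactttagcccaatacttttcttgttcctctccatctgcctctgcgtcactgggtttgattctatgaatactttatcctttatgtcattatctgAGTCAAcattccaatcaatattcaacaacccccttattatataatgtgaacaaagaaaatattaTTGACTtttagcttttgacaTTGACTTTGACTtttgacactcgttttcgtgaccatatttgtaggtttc
PUB23: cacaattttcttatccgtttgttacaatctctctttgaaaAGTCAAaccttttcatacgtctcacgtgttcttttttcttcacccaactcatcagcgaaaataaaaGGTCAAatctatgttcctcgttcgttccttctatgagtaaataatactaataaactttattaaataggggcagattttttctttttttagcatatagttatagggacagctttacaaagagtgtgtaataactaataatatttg
SZF1: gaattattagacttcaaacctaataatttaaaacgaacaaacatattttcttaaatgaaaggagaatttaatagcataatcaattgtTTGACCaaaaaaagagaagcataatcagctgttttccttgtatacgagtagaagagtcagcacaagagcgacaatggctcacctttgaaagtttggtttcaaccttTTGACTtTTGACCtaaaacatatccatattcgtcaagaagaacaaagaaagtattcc
CYP81F2: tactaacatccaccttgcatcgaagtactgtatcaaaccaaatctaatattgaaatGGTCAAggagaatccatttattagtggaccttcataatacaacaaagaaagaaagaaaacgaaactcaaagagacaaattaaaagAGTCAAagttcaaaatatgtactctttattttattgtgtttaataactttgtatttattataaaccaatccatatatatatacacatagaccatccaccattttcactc

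**Figure D4:**
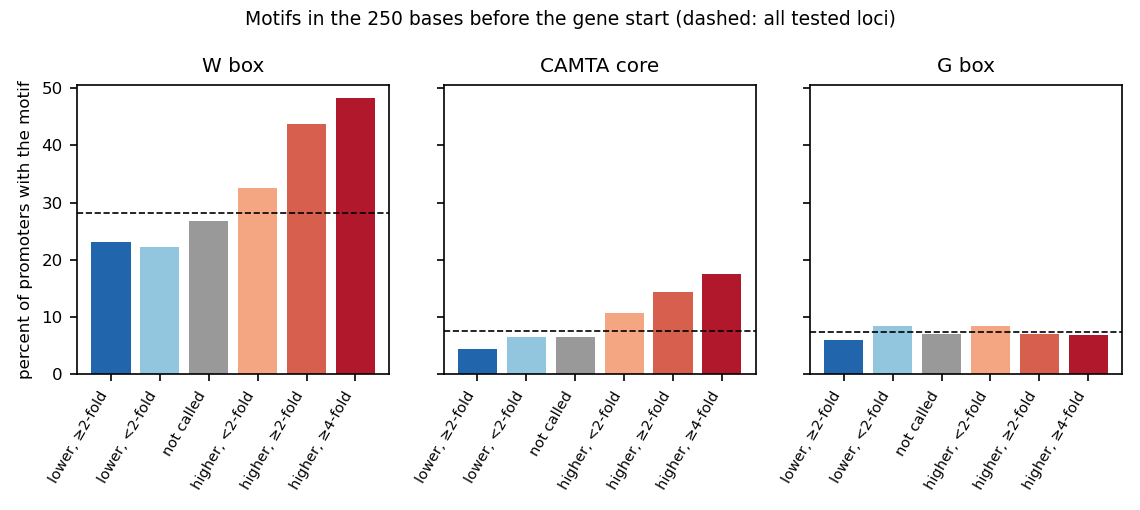
Percent of promoters (250 bases before the start) that hold the W box, the CAMTA core or the G box, by class of the gene in pdx3-3 against wild type; the class of at least 2-fold higher includes that of at least 4-fold, and the dashed line is all 18695 promoters. The W box and CAMTA core bars climb toward the most raised genes, to 48.2% and 17.5%, and the G box bars stay between 6.02% and 8.43%.

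CRK11 holds 4 W boxes, 2 of them end to end near the start, SZF1 holds 3 and the other 4 genes hold 2 each. The nearest lies 38 bases before the start in CRK11, 45 in SZF1 and 66 in WRKY53.

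Some loci stood apart in pdx3-3 from both other genotypes. They were picked after their values were seen, as loci called with at least 4-fold change against both wild type and pdx3-4 and not called in pdx3-4 against wild type, so their folds are a description. Both of the first comparisons share the pdx3-3 libraries. MRD1 (AT1G53480, chromosome 1, 19963047 to 19964712, minus strand) had 0.375, 0.442 and 0.282 CPM in pdx3-3 and 20.3, 24.4 and 23.9 CPM in pdx3-4, against 18.6, 18.3 and 21.2 CPM in wild type, lower in pdx3-3 than in all 6 other libraries (log2 −5.7, SE 0.17, adjusted p = 4.38e-08). The gene HEI10, a ubiquitin ligase of meiotic crossing over, lies on the opposite strand and overlaps MRD1 (19963267 to 19966952), and it too was low, at 0.751, 0.442 and 0.988 CPM in pdx3-3 and 2.9, 3.03 and 3.46 CPM in pdx3-4, against 2.8, 2.64 and 2.3 CPM in wild type. The strand setting of the counting is not given in the sources used here, and reads of the pair cannot be told apart. The pseudogene AT5G35935 (chromosome 5, 14083388 to 14089891) had 11.8, 10.8 and 11.4 CPM in pdx3-3 and 0.046, 0 and 0.0488 CPM in pdx3-4, against 0.212, 0.0961 and 0 CPM in wild type. Its summed ratio over 6 wild-type counts was 110.1, with a counting interval of 50.3 to 301. AT1G27565 (chromosome 1, 9574550 to 9575189), with no named function, had 2.31, 1.42 and 1.6 CPM in pdx3-3 and 0, 0 and 0 CPM in pdx3-4, against 0, 0 and 0 CPM in wild type. With a floor of 3 counts over the wild-type group, it was at least 33.8-fold higher in pdx3-3, and the exact counting interval of the summed ratio, which also covers the error of the 100 counts in pdx3-3, begins at 27.0.

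Also on chromosome 5, pseudogenes in a row were raised together in pdx3-3. AT5G34790 (12966080 to 12968155) had 9.51, 9.48 and 10.6 CPM in pdx3-3 and 2.99, 1.8 and 2.34 CPM in pdx3-4, against 2.12, 1.59 and 1.76 CPM in wild type, AT5G34795 had 4.63, 4.27 and 6.35 CPM in pdx3-3 and 1.1, 0.994 and 1.12 CPM in pdx3-4, against 0.687, 1.01 and 0.908 CPM in wild type and AT5G34800 (12971144 to 12973180) had 7.57, 8.74 and 10.12 CPM in pdx3-3 and 1.24, 2.18 and 1.9 CPM in pdx3-4, against 1.53, 0.961 and 1.44 CPM in wild type. All are on the plus strand, and their pdx3-3 libraries were separate from the 6 others. The next tested loci, AT5G34810 and AT5G34830, were also higher than in wild type (log2 2.4, adjusted p = 0.0132 and log2 2.42, adjusted p = 0.00202). AT5G34810 lost that call without pdx3-3 library 3 (0.0547). Against pdx3-4, AT5G34810 was called at adjusted p = 0.0443 but not by limma-voom (0.0577). Neither locus was called against pdx3-4 when any 1 pdx3-3 library was left out (0.0551 to 0.138). Reads of these pseudogenes and of similar copies elsewhere cannot be told apart in the counts. Among protein-coding genes with known roles, ERF5, a stress-induced ERF factor, had 54.2, 49.5 and 61 CPM in pdx3-3 and 11.2, 7.34 and 5.71 CPM in pdx3-4, against 7.4, 10.8 and 7.0 CPM in wild type. The ACC synthase ACS6, which the 4-fold condition against pdx3-4 leaves out, had 224, 301 and 299 CPM in pdx3-3 and 101, 72.7 and 64.5 CPM in pdx3-4, against 56.8, 75.1 and 57.1 CPM in wild type (pdx3-3 against pdx3-4, log2 1.79, SE 0.18, adjusted p = 0.000467), and NRT2.5, described with the nitrate genes, also met the rule. AT1G15405, a noncoding RNA, met the rule with 36, 9.38 and 2.12 CPM in pdx3-3, against 2.33, 1.78 and 2.46 CPM in wild type, values in the order of the ribosomal RNA shares, and its log2 was −0.042 without pdx3-3 libraries 1 and 2.

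**Figure D5:**
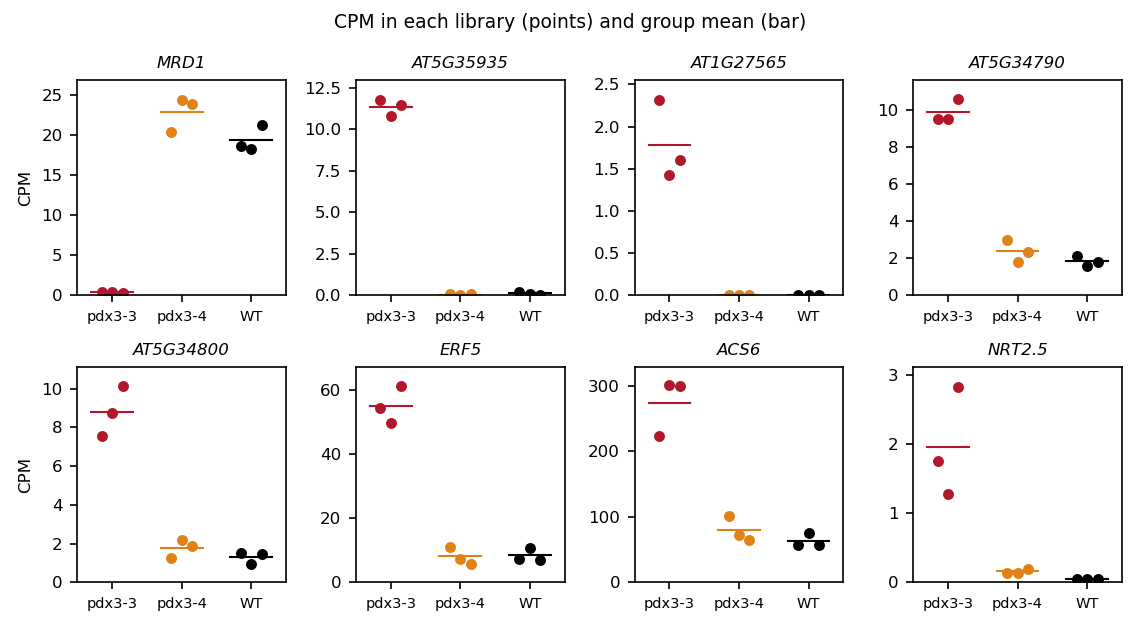
CPM of 8 loci in each library (points, 3 per genotype) with the group mean (bar), on linear axes that start at 0; pdx3-3 is at the left, pdx3-4 in the middle and wild type (WT) at the right. MRD1 is near 0 in pdx3-3 only, and the other loci are higher in pdx3-3 than in both other genotypes.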

How the data were processed

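Whole rosettes of pdx3-3, pdx3-4 and wild type were sequenced as polyA-selected, stranded libraries, 3 per genotype and pooled on an Illumina HiSeq2000, per the labels. The deposited values are raw counts per locus for each library. The submitters' processing notes name FastQC, TopHat2 (version 2) and TAIR10. The counting tool, its strand setting and the treatment of multi-mapped reads are not given in the sources used here.

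Chloroplast, mitochondrial and ribosomal RNA loci were removed from the counts. Loci that passed edgeR's filterByExpr were scaled by TMM and tested with edgeR 4.0.16 in R 4.3.3. The quasi-likelihood fit held all 9 libraries with genotype as its only term, and contrasts were pdx3-3 minus wild type and pdx3-3 minus pdx3-4. Benjamini-Hochberg adjustment ran over 18711 loci. The common dispersion gave a biological coefficient of variation of 0.102. Gene names, positions and promoters come from TAIR10.1, which named 32835 of 33323 nuclear loci. Intervals of ratios are exact 95% counting intervals and, like the floor of 3 counts, cover counting error only. They are not intervals for the difference between genotypes.

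Named genes were PDX3 and tested genes within 10 kb of it, the 10 largest folds in each direction with at least 5 CPM and no overlap of libraries, the 5 largest differences in mean CPM in each direction, and, from every list, the 4 members (or fewer) with the lowest adjusted p. ICS2, EPS1, EDS16, CRK21, CRK22, GS2, GLU1, SWEET11, TOC1, PCL1, PDX2, SOS4, PLR1, HEI10, ACS6, AT5G34830 and AT3G09870 were named outside that rule after their values were seen. One list member is not reported here by name. The 42 lists and their members were chosen with earlier results of these data known. Simulated data with the pdx3-3 and wild-type comparison gave back 65.7%, 97% and 100% of genes changed 1.5-fold, 2-fold and 4-fold, with 12 false among 187 calls over 18489 genes. That simulation changed only 67, 67 and 66 genes at those folds, with all other genes at wild-type means, against 6801 loci called here. It checks the procedure and does not measure recovery or false calls in these data. Alternatives were other scalings, other filters, DESeq2 1.42.0, limma-voom (limma 3.58.1), only the 2 groups compared, all loci, a replicate block and libraries left out.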

Additional observations from a re-analysis of the deposited data

Results flagged for a closer look

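Chloroplast-encoded loci, which no comparison uses, took up 0.536% of counts in pdx3-3 library 1 and 0.174% in pdx3-3 library 2, against at most 0.0532% in wild type. Ribosomal RNA loci, also left out, took up 0.774% in pdx3-3 library 1 and 0.242% in pdx3-3 library 2, against at most 0.0608% in wild type. Pdx3-3 library 3 lay at 0.0230% and 0.0199%, so that the pdx3-3 libraries did not share the signal.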

How the results depend on the processing

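No called gene was called in the opposite direction under any of the 20 alternatives, and 156 of 179 called named genes kept their call in each of these that gave them a value. Leaving out 1 library in turn gave 5251 to 6873 calls between pdx3-3 and wild type. Upper-quartile factors gave 5476 lower genes. Without pdx3-3 libraries 1 and 2 there were 4030 calls, 1463 of them lower, and 361 between pdx3-3 and pdx3-4. That fit leaves 1 pdx3-3 library, assumed to vary like the others. Between pdx3-3 and pdx3-4, leaving out 1 library gave 418 to 1826 calls. Near-zero values changed sign. AT5G49945 was at 0.046 with library size only and at −0.076 to 0.033 with 1 library left out. AT5G49990 was at −0.13 with upper-quartile factors, −0.0026 with only the 2 groups, −0.0043 with all loci and −0.088 to 0.097 with 1 library left out. AT1G15405 against wild type was at −0.042 without pdx3-3 libraries 1 and 2. For these changes the cause was not tested. Libraries of pdx3-3 and wild type with the same replicate number deviated with correlations of −0.032, 0.056 and 0.090. Pairs with different numbers gave −0.212 to 0.203, so these values cannot tell whether a number marks a shared batch. A replicate block gave 6461 calls, 3464 higher and 2997 lower, with 9 vascular markers, 4 aminotransferases and 1 defence WRKY gene lower. Low counts limit the folds of NRT2.5, ACS7, AT3G60470, AT2G44240, AT5G35935 and AT1G27565, which rest on 0 to 6 wild-type counts. Those of AT5G22540 and AT3G01830 rest on 7 and 10 wild-type counts. The counting intervals of their summed ratios were 28.9 to 151 and 36.8 to 143.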

Other observations

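Families read from gene symbols in the reference, with no list behind them, moved in both directions in pdx3-3 against wild type, beside a median log2 of −0.022 over all tested loci, of which 19.2% were higher and 17.2% lower. Of 21 tested PUB genes, U-box ubiquitin ligases, 12 rose, 0 fell and 9 did not pass the test, at a median log2 of 0.87. Of 19 CPK genes, calcium-dependent protein kinases, 11 rose and 0 fell, at a median of 0.40. Of 48 RLP genes, receptor-like proteins of the cell surface, 29 rose and 4 fell, at a median of 0.87. Of 48 NAC factors 17 rose and 6 fell, at a median of 0.20.

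On the lower side, genes with a SAUR symbol, small auxin-responsive growth genes, had 0 higher and 10 lower of 15, at a median log2 of −1.12. AT3G09870, annotated as SAUR-like but without that symbol, is not in this count and rose (log2 3.56, adjusted p = 2.49e-06). Of 28 UMAMIT amino acid transporters 0 rose and 10 fell, at a median of −0.37. Of 18 genes with a PIP symbol, not all of which need be aquaporins, 0 rose and 9 fell, at a median of −0.33. Of 17 GATA factors 0 rose and 8 fell, at a median of −0.41. Of 19 XTH genes, cell wall endotransglucosylases, 9 rose and 2 fell at a median of 0.29, and 9 of the 19 differed between pdx3-3 and pdx3-4. Symbols group genes by name only, members of a family can be alike in sequence, and these families were chosen after their values were seen.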
